A study of Mus musculus with 23 samples.

Results

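The 9 primary tumors of the series, 9 of its 23 libraries, differed in how much leukocyte RNA they held. They are described here in the order of their level of Ptprc, the gene for CD45, a phosphatase on the surface of nearly all leukocytes. The Ptprc values set the order, so they are given as a description. Each other gene with at least 10 counts in at least 5 of the tumors, 17779 genes of the 48897 listed, was then compared with that order. More leukocytes and more RNA per leukocyte cannot be told apart in such bulk tissue.

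The tumors grew in male BALB/c mice aged 4 to 6 weeks at the start. CT26 cells, a colon carcinoma line from the same mouse strain, were injected into the serosa of the cecum, and the mice were sacrificed after 3 weeks. All tumors therefore come from 1 cell line, and a tumor library mixes line and host cells. The same 9 mice each gave a pre-metastatic liver, and 5 sham-operated mice, injected with serum-free RPMI medium, each gave a control liver. No engineered allele and no drug treatment is named for any of the 3 groups in the sources used here. The mice are called by their numbers (M1, M2, M4, M5, M6, M7, M8, M10 and M12). Poly(A) RNA was sequenced, and the 9 tumor libraries held 47005276 to 70884436 counts. No tumor library was a copy of another: even for the closest pair, M7 and M8, the chi-square of their counts over its degrees of freedom was 49.3.

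A growing carcinoma holds T cells, natural killer (NK) cells, macrophages, neutrophils and dendritic cells in proportions that vary from tumor to tumor. T cells and NK cells can release interferon gamma. This cytokine acts on the cells around them, and turns on the chemokines Cxcl9 and Cxcl10, the guanylate-binding proteins and the antigen-presenting MHC genes. The MHC class II genes depend on the coactivator Ciita and are carried mainly by dendritic cells, macrophages and B cells.

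Ptprc (chr1:138062859-138175756, minus strand, mm10) had its lowest level in M1, at 10.8 RPKM (read counts per kilobase of gene, scaled to the total of the library). M6 and M12 followed at 11.3 and 11.5, M8 and M10 at 13.6 and 13.8, and M7 at 15.7. The highest levels were those of M4 at 20.4, M2 at 22.4 and M5 at 23.0. The tumors thus spanned 1.03 on the scale of log2(RPKM + 1), with the widest gap between M7 and M4. Each value rests on 3124 to 8201 counts, and the order of the close neighbours M6 and M12, 3124 and 3676 counts, rests on a small difference.

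**Figure D1:**
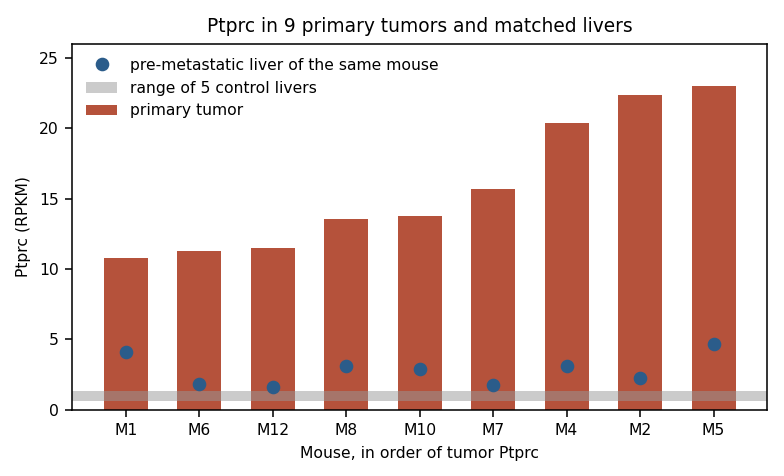
Ptprc in RPKM (vertical axis) for the 9 mice in order of their tumor's level. Bars are primary tumors, points the pre-metastatic livers of the same mice, and the grey band is the range of the 5 control livers. The tumors rise from 10.8 to 23.0, all above the livers at 1.60 to 4.69.

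The tumors averaged 15.8 ± 4.86 RPKM of Ptprc (SD, n = 9) and the pre-metastatic livers 2.83 ± 1.07 (n = 9). The order within the tumors does not use this contrast between tissues. Every tumor was above every liver, a difference of 2.13 on the log2(RPKM + 1) scale (exact two-sided permutation test, p = 4.11e-05). Control livers ranged from 0.61 to 1.37 RPKM. With the mouse as a replicate block, which pairs each tumor with its own liver, the exact sign-flip p was 0.00391, the smallest that 9 pairs can give.

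Other genes carried by most leukocytes went with Ptprc as a broad trend and not tumor by tumor. All 20 pan-leukocyte genes tested had a positive Spearman rho with Ptprc over the 9 tumors, with a median of 0.725 against 0.05 over all 17779 genes, of which 53.8% had a positive and 44.4% a negative rho. The rho of 7 of the 20 passed an exact two-sided permutation p of 0.01, where 1.81% of all genes passed in that direction. Laptm5, a lysosomal protein of blood cells, had a rho of 0.83, while Arhgdib and Itgb2, the most abundant others, had 0.37 and 0.48 (exact p = 0.336 and 0.194). The 20 genes were also averaged, each first scaled by its mean and SD over the tumors on log2(RPKM + 1). Ranked by this mean, the pan-leukocyte index, M2 stood highest, followed by M4 and M5, and the lowest were M1, M8 and M6. The 3 tumors with the most Ptprc were also the 3 highest by this mean. By summed RPKM they were highest too, but with M4 at 929 above M2 at 920, and M8 was lowest at 571.

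Among those 6 tumors below the gap, from M1 to M7, the pan-leukocyte genes had a median rho of only 0.286. A difference between M4, M2 and M5 and the remaining tumors is enough to give a high rho over all 9. Many of the lists described below, but not all, are therefore given with the median rho of these 6 tumors as a second value. The 3 high tumors are too few for a correlation of their own.

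Several tumors also held transcripts of skeletal muscle or liver. Skeletal muscle genes summed to 513 RPKM in M4 and 118 in M7, against 1.68 to 4.47 in the other tumors. Ckm, the creatine kinase of muscle, stood at 113 RPKM in M4 and 19.2 in M7. Hepatocyte genes summed to 319.8 RPKM in M12 and 159.7 in M10, against 8.08 to 37.1 in the rest, and albumin (Alb) stood at 173 and 86.4. Neither gene passed against Ptprc (rho of Ckm 0.52, exact permutation p = 0.162, and of Alb −0.18, p = 0.644). Since M4 is also among the 3 tumors with the most Ptprc, the counts over all genes and some list medians are also given below without M4 and M7.

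Red cell genes ran the other way from Ptprc. Their sum was 327 RPKM in M1, 42.7 in M4 and between 102 and 199 in the other 7 tumors. All 6 red cell genes had a negative rho, with a median of −0.567, and −0.80 in the 6 tumors below the gap. None of the 6 passed the exact p of 0.01, a level that 0.304% of all genes passed in the falling direction. The part of red cells in the other results was not tested.

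**Figure D2:**
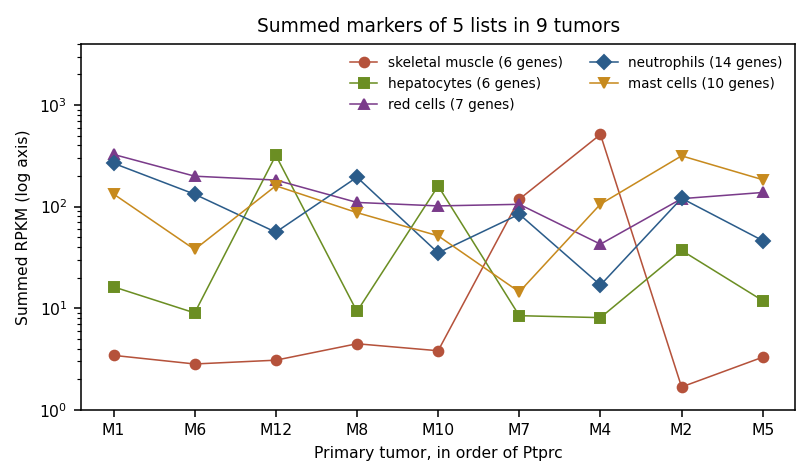
Summed RPKM of 5 marker lists (vertical log axis) in the 9 tumors in order of Ptprc, 1 line for each list. Muscle genes peak in M4 at 513 and M7 at 118, hepatocyte genes in M12 at 319.8 and M10 at 159.7, and neutrophil genes run from 267 in M1 to 16.9 in M4.

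Over the whole table, 321 genes had a positive rho with an exact p below 0.01 and 54 a negative one. In 100 permuted orders of the tumors, the positive count had a median of 62 and reached at most 215. The negative count had a median of 58, was 54 or more in 56 orders and reached at most 285. Both directions together gave 375 genes, a total that 1 permuted order reached or passed, with a maximum of 400. On RPKM, the excess over the permuted orders was thus in the rising count. The split depends on the scaling, with 282 rising and 118 falling genes after TMM and 279 and 126 with DESeq2 size factors, for which no permuted orders were drawn. After Benjamini-Hochberg adjustment over all genes, 3 genes passed 0.05 (0.0169% of those tested), Clec4a3 and Prkcq among them, all in exactly the order of Ptprc. No gene passed in the falling direction.

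The size of each change was taken from edgeR, as the slope of a gene on the log2(RPKM + 1) of Ptprc, so that a slope of 1 means that the gene and Ptprc doubled together. By edgeR's quasi-likelihood test with Benjamini-Hochberg adjustment, 88 genes rose (0.495%) and 2 fell (0.0112%) at an adjusted p below 0.05. The slopes of the 88 ran from 0.78 to 3.21, with a median of 1.5. Of the 88, 50 also had an exact p below 0.01.

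These edgeR calls rest on few tumors. Leaving out M4, M5 or M6 each brought the rising count to 0 by edgeR's adjusted p, while 870, 1056 and 844 genes rose at an unadjusted p below 0.05. Leaving out M2, M8, M7 or M10 brought it to 14, 16, 42 and 58, and leaving out M12 raised it to 187. None of the 88 genes was called in all 9 fits that left out a tumor, and 10 were called in 6 or more. Without the tumors with muscle transcripts, M4 and M7, 0 genes were called by edgeR's adjusted p, 831 rose at an unadjusted edgeR p below 0.05, and 130 rose at an exact p below 0.01. With all 9 tumors, 5.8% of genes rose and 3.74% fell at that unadjusted edgeR p. Without M10 and M12, 158 rose by the adjusted p.

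Clec4a3, a C-type lectin of monocytes and macrophages, was 5.65 RPKM in M1, 5.76 in M6, 6.36 in M12, 7.04 in M8, 8.49 in M10, 11.1 in M7, 11.2 in M4, 12.5 in M2 and 12.8 in M5. Each step of Ptprc was thus a step of Clec4a3, on 360 to 1034 counts. Its rho of 1 gave an exact p of 5.51e-06, the smallest that 9 tumors allow, and an adjusted p of 0.0327. Pearson's r on the log2(RPKM + 1) scale was 0.95 (exact permutation p = 4.41e-05) and 0.93 without M5 and M2, the tumors farthest from the median of Ptprc. The edgeR slope was 1.10 ± 0.18 (SE, adjusted p = 0.0327), and 3 of the 9 fits that left out a tumor still called it.

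Prkcq, the protein kinase C theta that acts below the T cell receptor, was low throughout, at 0.17 to 0.83 RPKM, and its slope of 1.60 ± 0.34 had an edgeR adjusted p of 0.0732. Among the 8 genes of highest rho of the 8581 with a mean of at least 5 RPKM were Clec4a3, Evi2b, Gm21975, Cebpg, Fcgr1, C3ar1 and Ctsc. They were chosen by that value, and several are known from myeloid cells: Fcgr1 is the high-affinity IgG receptor, C3ar1 the receptor for complement C3a, and Ctsc the protease that activates granzymes and neutrophil proteases.

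All 14 T cell genes tested were positive, with a median rho of 0.825, and 0.457 in the 6 tumors below the gap. At the exact p of 0.01, 7 of the 14 rose, and edgeR called Lck, Cd5 and Cd6. Over all genes, 1.81% rose at that exact p and 0.495% by edgeR. The same shares apply to the rising counts of the lists that follow. Without M4 and M7 the median rho of the T cell genes was 0.75. The median slope of the 14 was 1.27, so the T cell genes spread more widely over the tumors than Ptprc itself. Summed over the list, the level was 10.9 RPKM in M1 and 11.3 in M6, and 27.8, 38.2 and 32.2 in M4, M2 and M5.

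Cd3e, a chain of the T cell receptor complex, was lowest in M1 at 0.87 RPKM, had a median of 2.30 and was highest in M2 at 4.56, on 83 to 432 counts. M2, M5 and M4 were the 3 highest tumors, with M12 just below M4 at 2.71. The rho was 0.82 (exact p = 0.0108) and r 0.81 (exact permutation p = 0.0086), or 0.60 without M5 and M2. The slope of 1.30 ± 0.38 had an adjusted p of 0.231 by edgeR, so Cd3e by itself did not pass. Lck, the kinase that starts signalling at that receptor, ran from 1.58 in M6 to 5.85 in M2 and rose with a slope of 1.44 ± 0.26 (edgeR adjusted p = 0.0436). Cd5, a brake on the same signal, was at 0.12 to 0.93 RPKM and rose with a slope of 2.43 ± 0.34 (edgeR adjusted p = 0.0187).

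The genes of cytotoxic lymphocytes were mostly positive, but Gzmb and Prf1 had a low or negative rho. Cd8a, the coreceptor of cytotoxic T cells, ran from 1.35 RPKM in M1 to 6.39 in M2 with a rho of 0.88 (exact p = 0.0031). Gzmb, a granzyme, had its peaks in M5 at 70.6 and M12 at 61.8, and the remaining tumors lay between 12.05 and 27.4. Prf1, the pore-forming perforin, peaked in M12 at 71.4 and M5 at 26.2, against 6.86 to 16.6 elsewhere. M12, the third lowest tumor by Ptprc, thus held the highest perforin level and the second highest granzyme B level. By the pan-leukocyte index M12 stood further up, at 0.134 and rank 6 counted from the lowest tumor. The rho of Gzmb was 0.27 and that of Prf1 −0.18 (exact p = 0.49 and 0.644). Over the 12 cytotoxic genes tested, 11 were positive, 2 passed the exact p, and the median rho was 0.70, or 0.571 in the 6 lower tumors.

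NK cell genes were all positive, with 2 of 7 past the exact p, a median rho of 0.717 and 0.771 among the 6 tumors below the gap. Klrk1, the activating receptor NKG2D, was 0.71 to 2.34 RPKM in those 6 tumors and 3.87 to 4.96 in the 3 others, and rose with a slope of 2.06 ± 0.31 (edgeR adjusted p = 0.0254). Xcl1, the chemokine that draws cross-presenting dendritic cells, ran from 0.25 RPKM in M1 to 3.67 in M4, on 7 to 106 counts (rho 0.88, exact p = 0.0031). Interferon gamma itself (Ifng) was 0.19 to 1.01 RPKM in the 6 lower tumors and 2.29, 1.44 and 2.09 in M4, M2 and M5 (rho 0.70, exact p = 0.0433). Its slope of 2.22 ± 0.57 had an edgeR adjusted p of 0.152.

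Helper and regulatory T cell genes were mostly positive. Cd4, the coreceptor of helper T cells, ran from 0.15 RPKM in M1 to 0.99 in M2 with a rho of 0.83 (exact p = 0.0083). Foxp3, the factor of regulatory T cells, stayed between 1.94 and 2.97 RPKM with a rho of 0.27 (exact p = 0.49). Over this list, 7 of 8 genes were positive and 2 passed the exact p, with a median of 0.575.

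B cell and plasma cell genes did not pass in any case. The median rho was 0.333 over 9 B cell genes and 0.175 over 8 plasma cell genes, with 0 past the exact p of 0.01 in either list. In the 6 lower tumors these medians were 0.086 and 0.571. Cd79a, a chain of the B cell receptor, was 0.14 to 0.75 RPKM in 8 tumors and 2.08 in M10.

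Macrophage genes were mixed against Ptprc. Of 14 tested, 10 were positive and 4 negative, 3 rose at the exact p, and the median rho was 0.375, or 0.00 in the 6 lower tumors. Against the mean of the 20 pan-leukocyte genes in place of Ptprc, their median rho was 0.80. Adgre1, which encodes the F4/80 antigen, ran from 17.1 RPKM in M1 to 27.7 in M12 over the 6 lower tumors and was 39.1, 52.4 and 39.6 in M4, M2 and M5. It rose with a slope of 1.19 ± 0.20 (edgeR adjusted p = 0.0327), a rho of 0.87 (exact p = 0.0045), and an r of 0.90 (exact permutation p = 0.0020), or 0.81 without M5 and M2. Aif1 and Ms4a7 were the others past the exact p.

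The complement genes and the alternative-activation markers of macrophages behaved otherwise. C1qa, a subunit of complement C1q and the most abundant of the list, was 232 RPKM in M1, 539.6 in M12 and 635.5 in M2 with a rho of 0.48 (exact p = 0.194). Mrc1, the mannose receptor, was highest in M6 at 92.6 and lowest in M4 at 12.8 with a rho of −0.30. Cd163, a hemoglobin scavenger receptor, and Gpnmb had rho of −0.20 and −0.40. None of the negative values passed the exact p of 0.01.

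Monocyte genes were 6 positive and 4 negative of 10, with a median rho of 0.392. Fcgr1 was 18.1 to 32.4 RPKM in the 6 lower tumors and 38.9 to 52.9 in the 3 others, and rose with a slope of 1.06 ± 0.18 (edgeR adjusted p = 0.0327). Ccr2, the receptor that brings monocytes out of the marrow, ran from 9.58 RPKM in M12 to 30.4 in M4 (rho 0.78, exact p = 0.0172). F13a1, a transglutaminase of monocytes and resident macrophages, stood at 83.4 RPKM in M6 and at 3.10 to 19.4 in the other tumors (rho −0.43, exact p = 0.25).

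Neutrophil genes had mostly negative rho. Of the 10 tested, 8 were negative, the median rho was −0.308 (−0.543 in the 6 lower tumors), the median slope was −1.25, and none passed the exact p in either direction. S100a9, a subunit of calprotectin, was 148 RPKM in M1, 64.5 in M6, 12.6 in M12, 101 in M8, 4.47 in M10, 35.2 in M7, 2.63 in M4, 64.2 in M2 and 16.7 in M5. The tumor with the least Ptprc held the most S100a9, and M2 lay well above its neighbours M4 and M5. S100a8, its partner, was likewise highest in M1 at 89.6, and was lowest in M10 and M4 at 3.42 each. The rho was −0.50 for S100a9 and −0.47 for S100a8 (exact p = 0.178 and 0.213).

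The sum of the mast cell genes was 316 RPKM in M2, 184 in M5 and 106 in M4, but also 160.2 in M12 and 133 in M1, with 14.5 in M7. The median rho over 10 genes was 0.367 over all tumors and −0.514 over the 6 lower ones, with 0 past the exact p. Eosinophil and adipocyte genes did not reach the count minimum.

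Dendritic cell genes were positive in 10 of 11 cases (median rho 0.583, and 0.543 in the 6 lower tumors). Xcr1, the receptor for Xcl1 on cross-presenting dendritic cells, had the steepest slope of all 88 called genes, 3.21 ± 0.42 (edgeR adjusted p = 0.0159, rho 0.95). It ran from 0.089 RPKM in M1 to 1.74 in M5, on 22 to 448 counts, and M4 and M2 were next at 0.74 and 0.91. Batf3, a factor these cells need, was 0.71 to 1.49 RPKM in the 6 lower tumors and 2.04 to 3.67 in the others (rho 0.75, exact p = 0.0255). The other members had no edgeR call.

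**Figure D3:**
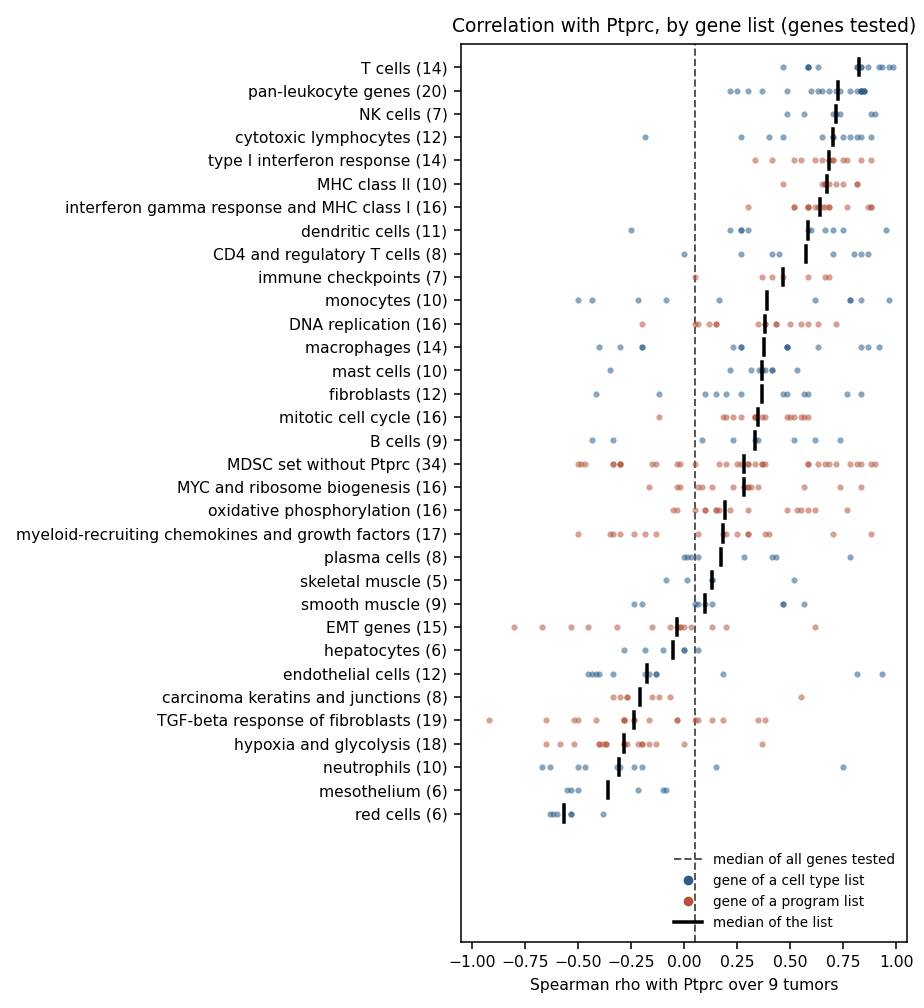
Spearman rho with Ptprc over the 9 tumors (horizontal axis) of each gene of the lists with at least 5 genes tested, 1 row for each list. Points are genes, black bars the list medians, and the dashed line the median of all genes at 0.05. Over all 9 tumors, the bar of the T cell genes lies at 0.825 and that of the red cell genes at −0.567.

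MHC class II genes, which present antigen to CD4 T cells, had the steepest list slope among the immune lists, a median of 2.14. All 10 tested were positive with a median rho of 0.675, yet none passed the exact p of 0.01, while edgeR called H2-Aa, Ciita and H2-DMb1. H2-Aa, an alpha chain, was 34.1 RPKM in M1, 21.0 in M6, 65.2 in M12, 58.3 in M8, 28.2 in M10 and 44.6 in M7, and then 160.2 in M4, 195 in M2 and 147 in M5. The 3 tumors above the gap in Ptprc lay above all others, and the rho over the 6 tumors below the gap was 0.20. Over all 9 the rho was 0.72 (exact p = 0.0369) and r 0.86 (exact permutation p = 0.0052), or 0.73 without M5 and M2. The slope was 2.31 ± 0.43 (edgeR adjusted p = 0.0456).

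Ciita showed the same step: it was 0.61 to 1.26 RPKM in the 6 lower tumors and 4.66, 4.34 and 4.32 in M4, M2 and M5. It rose with a slope of 2.47 ± 0.39 (edgeR adjusted p = 0.0282). Summed over the list, MHC class II reached 404 to 796 RPKM in the lower tumors and 1377 to 1667 in the others. The median rho of the list was 0.143 in the 6 lower tumors and 0.589 without M4 and M7.

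The interferon gamma list and the MHC class I genes were positive in 16 of 16 cases, with a median rho of 0.642, a median slope of 1.02 and a median of −0.057 in the 6 lower tumors. Of the 16, 3 passed the exact p, and edgeR called 3, Cxcl9 and Cxcl10 among them. B2m, the light chain of MHC class I, moved little in size, from 1659 RPKM in M6 to 2758 in M2, but kept close to the order (rho 0.88, exact p = 0.0031).

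Cxcl9, a chemokine that draws Cxcr3-bearing T cells, was 6.09 RPKM in M1, 3.37 in M6, 13.2 in M12, 14.3 in M8, 6.64 in M10, 26.6 in M7, 50.2 in M4, 42.8 in M2 and 39.7 in M5. Its rho within the 6 lower tumors was 0.77. Over all 9 the rho was 0.87 (exact p = 0.0045), r was 0.89 (exact permutation p = 0.0027) and 0.86 without M5 and M2, and the slope was 2.86 ± 0.50 (edgeR adjusted p = 0.0352). Cxcl10 and Cxcl11, which share the receptor, had slopes of 1.96 ± 0.36 and 2.71 ± 0.47 (edgeR adjusted p = 0.0456 and 0.0327), and both were highest in M5, at 86.6 and 19.9 RPKM.

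The guanylate-binding proteins, interferon-induced GTPases that attack intracellular microbes, were put together as a group after their values had been seen. Of 11 tested, all were positive and 8 were among the 88 edgeR calls, with a median rho of 0.733 and a median slope of 1.61. Over all genes, 53.8% had a positive rho and 0.495% rose by edgeR. The median rho of the group was 0.257 in the 6 lower tumors and 0.536 without M4 and M7. Gbp10 was 4.01 to 8.44 RPKM in the 6 lower tumors and 21.8, 15.2 and 21.8 in M4, M2 and M5. Some members are near-identical copies, so reads may have been split between them. Cd40, the costimulatory receptor of antigen-presenting cells, and Fgl2 also rose, with slopes of 2.09 ± 0.24 and 1.93 ± 0.20 (edgeR adjusted p = 0.0147 for each).

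Type I interferon genes were positive in 14 of 14 cases, with a median rho of 0.683 and a median of −0.029 in the 6 lower tumors. Of these, 2 passed the exact p and none the edgeR threshold. Isg15, a ubiquitin-like modifier, was 34.9 RPKM in M6, 164 in M5 and between 53.1 and 102 in the other tumors (rho 0.75, exact p = 0.0255).

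The sequences before the start of 4 genes of these lists are shown, the MHC class II genes H2-Aa and H2-Eb1 and the chemokines Cxcl9 and Cxcl10. All 4 hold the Y box letters described below, so they do not stand for their lists, whose counts follow the sequences. They are the 250 bases before the RefSeq start on GRCm38.p6, written 5′ to 3′ on the strand of the gene. The coordinates are chr17:34287824-34288073 (minus strand) for H2-Aa and chr17:34305617-34305866 (plus strand) for H2-Eb1. Those of Cxcl9 are chr5:92328080-92328329 and those of Cxcl10 chr5:92348890-92349139, both on the minus strand. Capitals mark the Y box CTGATTGG, read on either strand, and in Cxcl10 also a core of the interferon-stimulated response element (ISRE), which is GAAA, 2 bases of any kind and GAAA.
H2-Aa: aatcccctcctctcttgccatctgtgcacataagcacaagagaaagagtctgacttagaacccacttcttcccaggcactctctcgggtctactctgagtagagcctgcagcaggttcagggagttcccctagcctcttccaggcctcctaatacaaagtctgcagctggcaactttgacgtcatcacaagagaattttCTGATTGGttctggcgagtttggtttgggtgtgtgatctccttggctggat
H2-Eb1: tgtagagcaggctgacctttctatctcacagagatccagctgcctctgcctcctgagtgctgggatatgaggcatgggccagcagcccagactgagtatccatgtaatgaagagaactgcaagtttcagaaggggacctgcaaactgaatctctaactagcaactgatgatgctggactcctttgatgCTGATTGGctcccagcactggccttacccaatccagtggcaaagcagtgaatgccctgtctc
Cxcl9: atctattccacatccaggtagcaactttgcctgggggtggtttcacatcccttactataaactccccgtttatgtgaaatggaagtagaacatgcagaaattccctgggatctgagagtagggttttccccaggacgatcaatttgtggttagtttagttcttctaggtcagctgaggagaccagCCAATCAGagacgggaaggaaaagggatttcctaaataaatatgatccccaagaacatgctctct
Cxcl10: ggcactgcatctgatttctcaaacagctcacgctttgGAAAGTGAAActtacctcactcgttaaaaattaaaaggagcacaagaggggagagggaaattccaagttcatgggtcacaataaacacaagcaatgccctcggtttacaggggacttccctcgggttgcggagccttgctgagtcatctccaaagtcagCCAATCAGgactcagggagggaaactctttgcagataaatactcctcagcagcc
The Y box letters were found in 3 of the 7 MHC class II genes with a sequence (of 10 on the list) and in 5 of 12 interferon gamma and MHC class I genes (of 16), against 4.43% of 27025 genes. They were in 0 of 11 type I interferon genes (of 14). The ISRE letters were in 1, 4 and 5 of these genes respectively, against 3.46% of all genes. The letters TTCNNNGAA, known as the GAS core, were in 0, 2 and 2, against 8.13%. A match is a description of the letters and not of a bound site.

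Inhibitory receptors and their ligands were positive in 7 of 7 cases with a median rho of 0.467 and no call by either test. Cd274, the gene of PD-L1, was 4.43 to 10.8 RPKM in the 6 lower tumors and 13.03, 22.8 and 20.8 in M4, M2 and M5 (slope 1.19 ± 0.34, edgeR adjusted p = 0.21). Pdcd1, which encodes PD-1, was 1.65 to 3.69 RPKM in the lower tumors and 3.54, 7.48 and 5.53 in the others (rho 0.68, exact p = 0.0503).

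The set of genes the study used to score myeloid-derived suppressor cells, taken without Ptprc, had 34 genes tested, of which 22 were positive, 3 rose at the exact p and 1 by edgeR. Its median rho was 0.283, and 0.00 in the 6 lower tumors. Arg1, arginase, ran from 25.9 RPKM in M4 to 258 in M6 with a rho of −0.48. Of 17 chemokines and growth factors that recruit myeloid cells, 10 were positive and 1 rose at the exact p (median 0.183). Ccl2, the ligand of Ccr2, was highest in M5 at 272 RPKM and lowest in M4 at 70.3, both tumors of high Ptprc (rho 0.20).

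Stromal lists differed in how they went with Ptprc. Fibroblast genes were positive in 10 of 12 cases with a median rho of 0.367, and 0.40 in the 6 lower tumors. Col1a2, a chain of collagen I, was 272 RPKM in M6 and 451 in M4, with a rho of 0.83 (exact p = 0.0083) and a shallow slope of 0.38 ± 0.15 that did not pass (edgeR adjusted p = 0.447). Dcn, the proteoglycan decorin, was 455 in M8 and 102 in M4 (rho −0.42).

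Endothelial genes were negative in 9 of 12 cases (median rho −0.175), and a single gene passed the exact p in the rising direction. That gene was Kdr, the VEGF receptor 2, at 2.21 RPKM in M1, a median of 4.05 and 5.06 in M5 (rho 0.93, exact p = 0.0008, edgeR slope 0.70 ± 0.21 with adjusted p = 0.233). Pecam1, the more abundant endothelial marker CD31, was highest in M12 at 23.1 and M6 at 21.2 and lowest in M1 at 10.3, with a rho of −0.13. Mesothelial genes were negative in 6 of 6 cases with a median of −0.358 and no call.

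**Figure D4:**
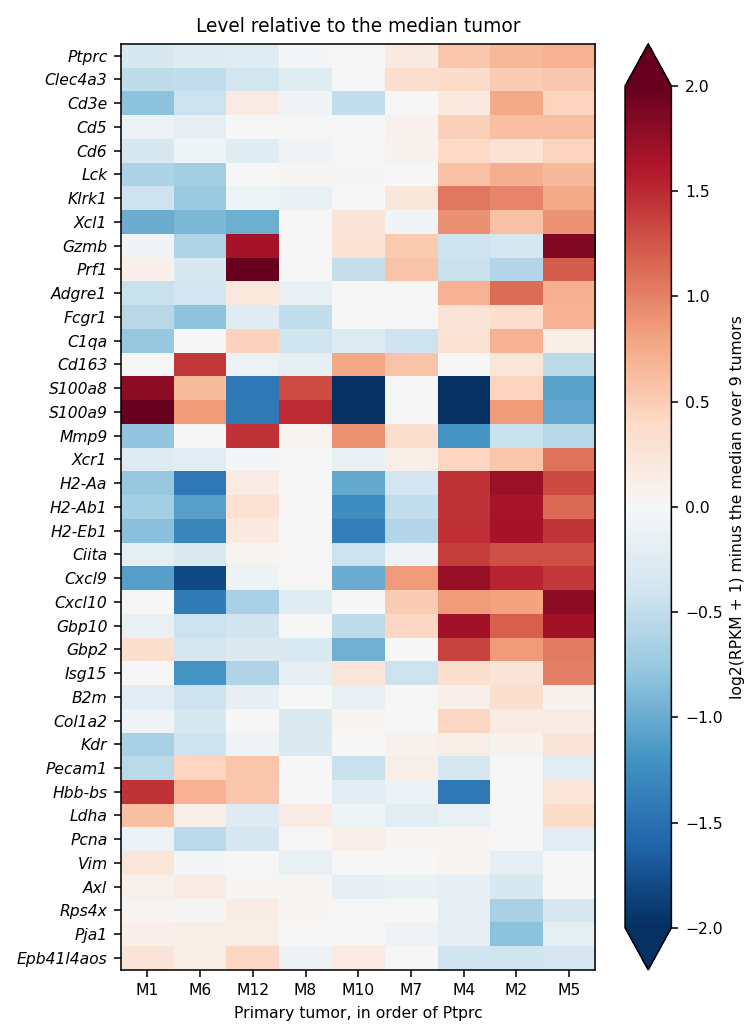
Difference in log2(RPKM + 1) from the median tumor (colour, limited to −2 and 2) for members of the lists and other genes with high or low rho, 1 row for each gene, in the 9 tumors in order of Ptprc. The MHC class II genes step up at M4, while Clec4a3 climbs from 5.65 to 12.8 RPKM through all tumors.

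Cell cycle genes had mostly positive rho, and none passed. Mitotic genes were positive in 15 of 16 cases and DNA replication genes in 15 of 16, with median rho of 0.35 and 0.383. Their median slopes were 0.18 and 0.12, with 0 past the exact p. In the 6 lower tumors the median rho was 0.486 for the mitotic and 0.60 for the DNA replication genes. Top2a, which untangles DNA in dividing cells, was 92.6 RPKM in M12 and 161 in M4 (rho 0.48, exact p = 0.194). Oxidative phosphorylation genes were positive in 14 of 16 cases with a median slope of 0.06, and MYC and ribosome biogenesis genes in 13 of 16 with 1 past the exact p.

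Hypoxia and glycolysis genes had mostly negative rho: 16 of 18 were below 0, with a median rho of −0.283 and none past the exact p. Within the 6 lower tumors the median was −0.829. Car9, a carbonic anhydrase induced by low oxygen, went from 44.5 RPKM in M1 to 3.89 in M7 across the lower tumors with M8 above M12, and was 7.42, 13.4 and 28.5 in M4, M2 and M5 (rho −0.28 over all 9, exact p = 0.463).

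Keratin and junction genes of carcinoma cells were negative in 7 of 8 cases (median rho −0.208), and genes of epithelial-mesenchymal transition had a median of −0.033 over 15, with 0 past the exact p in either list. The keratin and junction genes had no clear direction, since their median edgeR slope was positive at 0.324. Their median rho with the pan-leukocyte index was 0.092. Axl, a receptor kinase of mesenchymal tumor cells, was 248 RPKM in M6 and 179 in M2 with a rho of −0.80 (exact p = 0.0138). Vim had a rho of −0.03. The fibroblast response to TGF-beta was negative in 13 of 19 cases (median −0.233). Its single falling gene at the exact p was Pxdc1 (rho −0.92, exact p = 0.0013), which ran from 11.4 RPKM in M6 to 5.34 in M5.

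The 4 Y-linked genes tested, present in these male hosts, had positive rho with a median of 0.525 and no call. Ddx3y was 1.42 to 3.13 RPKM in the tumors against 9.02 to 16.6 in the livers of the same mice. Whether CT26 cells carry these genes is not given in the sources used here.

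Among the genes with the lowest rho, chosen by that value, were Irak1bp1 (−0.93), Pxdc1 and Pja1 (−0.92 each), and Rps4x, Sigirr, Ndufa7 and Mob2 (−0.90 each). Rps4x, an X-linked protein of the small ribosomal subunit, was 2236 to 2488 RPKM in the 6 lower tumors and 1956, 1430 and 1772 in M4, M2 and M5 (exact p = 0.0020, edgeR slope −0.57 ± 0.14 with adjusted p = 0.124). The ribosomal proteins were looked at together after this had been seen: 84 of 89 were negative, with a median rho of −0.567 and a median edgeR slope, on TMM-scaled counts, of −0.30, and Rps4x alone passed the exact p. By edgeR, the 2 genes that fell were the noncoding Epb41l4aos (slope −0.74) and LOC108168162 (slope −1.17), with adjusted p of 0.0436 and 0.0327.

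The livers of the same mice were not used to set the order, so they bear on whether tumor and liver leukocyte genes go together. Ptprc in the pre-metastatic liver did not pass against Ptprc in the tumor (rho 0.20, exact p = 0.613, r 0.30). Of 8 leukocyte genes tested in the livers, 3 passed with Benjamini-Hochberg adjustment over the 8, all negative. The neutrophil genes S100a8 and S100a9 and the myeloid integrin Itgam were lower in the livers of mice whose tumors held more Ptprc.

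S100a8 in the liver was 51.9 RPKM in M1, 24.8 in M6, 23.8 in M12, 16.4 in M8, 11.5 in M10, 10.3 in M7, 16.3 in M4, 2.35 in M2 and 7.08 in M5. Control livers held 1.69 to 7.23, so the livers of M2 and M5 lay within the control range and the other 7 above it. The rho with tumor Ptprc was −0.93 (exact p = 0.0007, adjusted 0.0060) and r was −0.82 (exact permutation p = 0.0033, adjusted 0.0264). Without M5 and M2, the mice farthest from the median of tumor Ptprc, 7 mice were left and neither measure passed. There r kept its sign at −0.64 (exact permutation p = 0.124, adjusted 0.497), and rho was −0.89 (exact permutation, adjusted p = 0.0984). Without M1, whose liver stood highest, rho was −0.90 (exact permutation, adjusted p = 0.0365), while r was −0.78 and no longer passed (exact permutation, adjusted p = 0.129).

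S100a9 in the liver ran from 62.0 RPKM in M1 to 4.11 in M2, with a rho of −0.88 (exact permutation, adjusted p = 0.0123) and an r of −0.76 (exact permutation, adjusted p = 0.0496). Without M1 its rho was −0.83 and no longer passed (exact permutation, adjusted p = 0.0615). Itgam had a rho of −0.80 (exact permutation, adjusted p = 0.0369) and −0.71 without M1, where it no longer passed (exact permutation, adjusted p = 0.154). It also did not pass with TMM scaling (exact permutation, adjusted p = 0.057). Liver Ccr2, Adgre1, Cd3e and Cd79a had rho of −0.05, 0.25, 0.22 and −0.27 and did not pass.

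Over the neutrophil list, 11 of 12 genes tested in the livers were negative with tumor Ptprc, and 4 fell at the exact p of 0.01 (S100a8, S100a9, Retnlg and Ngp), where 0.598% of the 16208 liver genes did. The median rho was −0.692 on RPKM and −0.758 with TMM scaling. All liver genes had a median of 0.28 on RPKM and 0.02 with TMM. Over all liver genes, 609 had a positive rho at the exact p (3.76%), and none passed the adjusted threshold. With TMM scaling, 225 were positive and 220 negative at the exact p, so more liver genes lay on the falling side than on RPKM, and 1 gene passed the adjusted threshold in each direction.

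**Figure D5:**
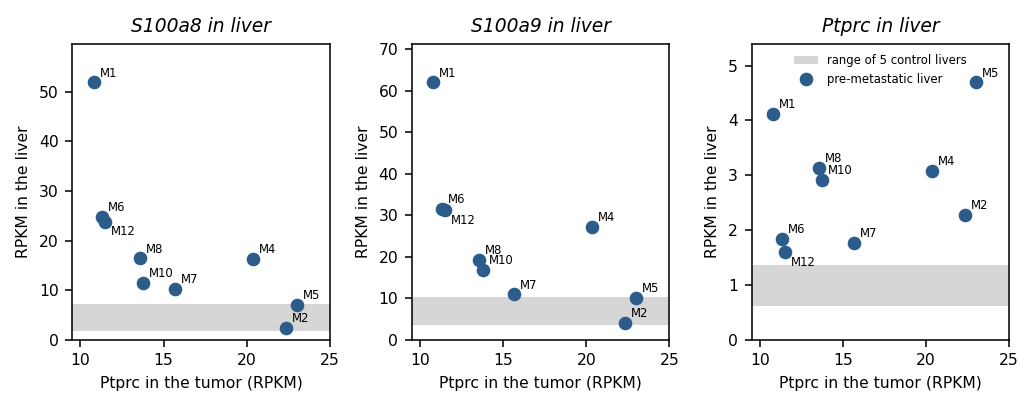
RPKM in the pre-metastatic liver (vertical axes) of S100a8, S100a9 and Ptprc against Ptprc in the tumor of the same mouse (horizontal axes, RPKM). Points are mice and the grey bands the ranges of the 5 control livers. S100a8 goes from 51.9 in M1 to 2.35 in M2, while liver Ptprc lies between 1.60 and 4.69.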

How the data were processed

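Poly(A) RNA of 9 primary tumors, 9 pre-metastatic livers and 5 control livers was sequenced after NEBNext Ultra library preparation. The authors deposited raw counts of 48897 genes and RPKM values, the count divided by gene length and library total. Recomputing them from counts changed no value by more than 1.75e-06 of itself. The submitters' processing notes name HISAT2, HTSeq 0.6.0 and mm10.

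The genes tested (10 or more counts in 5 or more tumors) were compared with Ptprc by Spearman's rho on RPKM, with a two-sided exact permutation p over all orders, and by edgeR 4.0.16 (R 4.3.3, TMM, quasi-likelihood test on counts, Ptprc log2(RPKM + 1) as covariate). Values used a pseudocount of 1. Adjustment was Benjamini-Hochberg over all genes tested, except for the 8 liver genes. Alternatives were DESeq2 1.42.0, other scalings and filters, and leaving out tumors. Both procedures were tested on simulated data. The p values measure the spread between these mice, and all correlations share the library and depth of each tumor.

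The members and the 41 gene lists were chosen with earlier results of these data known. Genes named are the 3 most abundant of each list, its members called, and the 8 highest and lowest in rho. Others were chosen after their values were seen. Some results are not reported here. Mice pair tumor and liver by the number in the labels. Promoters are RefSeq sequences. Tools also included Python 3.11.15, numpy 2.4.6 and pandas 2.3.3.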

Additional observations from a re-analysis of the deposited data

Results flagged for a closer look

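Of 65 groups of 9 values that were examined, tumor genes, summed lists and liver genes, 15 held a sample that stood far from the others, with a gap to its neighbour, relative to the whole range, past Dixon's critical value for 9 samples. Chance flags about 1 group in 20 where values are normally distributed, which was not checked for these RPKM values. The genes of a list also share their samples.

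Muscle genes stood apart in M4, with Ckm at 113 RPKM and the list at 513, and hepatocyte genes in M12, with Alb at 173 and the list at 319.8. The next tumors, M7 and M10, were at 19.2 for Ckm and at 86.4 for Alb. Perforin (Prf1) was 71.4 RPKM in M12, and the next tumor, M5, was at 26.2. M5 itself stood apart by the dendritic cell receptor Xcr1 at 1.74 RPKM and by the chemokines Cxcl10 at 86.6 and Cxcl11 at 19.9, with the next tumors at 0.91, 44.9 and 9.05. F13a1 was 83.4 RPKM in M6 against 19.4 in the next tumor, and Cd79a was 2.08 in M10 against 0.75. Pja1, an X-linked ubiquitin ligase, was low in M2 at 12.2 RPKM, with the next tumor at 19.3.

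In the pre-metastatic livers, M1 stood highest in Itgam at 4.50 RPKM, S100a8 at 51.9 and S100a9 at 62.0, with the next livers at 1.78, 24.8 and 31.5. The liver of M5 was highest in Cd3e at 1.58 RPKM, the next being M10 at 0.68. The correlations of these liver genes with and without M1 are given with the results.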

How the results depend on the processing

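The difference in Ptprc between tumor and pre-metastatic liver kept its direction and its call under the alternatives tried, at 2.47 with a pseudocount of 0.1, 2.13 with the replicate block, and 2.05 to 2.25 without 1 replicate. The 3 genes rising at the adjusted exact p became 0 without the count filter. The count was also 0 within clock phase (tumors split by clock genes), without any 1 tumor, and without the 2 farthest tumors. It was 0 too without the tumors with muscle or with hepatocyte genes, and in the 6 lowest tumors. Except without the filter, these settings allow few orders. The smallest exact p was 4.96e-05 without 1 tumor, 0.000397 without 2, 0.000694 within clock phase and 0.00278 in the 6 lowest. Many genes would have to share that p to pass after adjustment, so these zeros cannot show whether the result held. With the pan-leukocyte index, 18 genes passed. The 321 genes rising at exact p below 0.01 became 486 with that index, 161 without the 2 farthest tumors, 130 without the muscle tumors, 54 in the 6 lowest, and 168 to 345 without 1 tumor. The 54 falling genes became 84 by Pearson's r, 118 with TMM, 126 with DESeq2 size factors, 94 without the filter, 86 with the index, 98 without the 2 farthest, 31 without the muscle tumors, 34 in the 6 lowest, and 39 to 110 without 1 tumor.

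The 88 rising edgeR genes became 383 with DESeq2, 148 with the index, 51 with clock phase as a term, 1 without the 2 farthest tumors, 0 without the muscle tumors, 158 without the hepatocyte tumors, and 0 to 187 without 1 tumor. Where edgeR called 0, genes rising and falling at unadjusted p below 0.05 numbered 870 and 488 without M4, 1056 and 727 without M5, 844 and 535 without M6, and 831 and 416 without the muscle tumors. The 2 falling genes became 63 with DESeq2, 1 without the filter or with clock phase as a term, 0 without the 2 farthest or the muscle tumors, and 0 to 3 without 1 tumor. The cause of these changes was not tested, except that fits without tumors have fewer samples.

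In the livers, TMM gave 1 gene rising and 1 falling at the adjusted exact p, where RPKM gave 0, and 225 and 220 at exact p below 0.01, against 609 and 97. Itgam no longer passed with TMM (−0.77), within clock phase (−0.87), without the 2 farthest mice (−0.82) or without M1 (−0.71). S100a8 no longer passed without the 2 farthest (−0.89), nor S100a9 within clock phase (−0.80), without the 2 farthest (−0.79) or without M1 (−0.83). Of the genes that never passed, rho changed sign for Ptprc (−0.18), Adgre1 (−0.071) and Cd3e (−0.32) without the 2 farthest, for Ccr2 within clock phase (0.27) and without M1 (0.36), and for Cd79a without M1 (0.048).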

Other observations

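The level of a whole chromosome was taken as the median log2 difference of its genes with a mean of at least 5 RPKM from their median tumor. Genes of chromosome X stood at −0.44 in M2 (241 genes), against −0.05 to 0.11 in the other 8 tumors. Rps4x and Pja1, among the genes of lowest rho with Ptprc, lie on that chromosome, and M2 is the second highest tumor in Ptprc. Pja1 was 12.2 RPKM in M2 and 19.3 to 24.5 elsewhere. Genes of chromosome 12 stood at 0.30 in M4 (275 genes), against −0.06 to 0.02 in the other tumors. The 16 mitochondrial genes varied more from tumor to tumor, from −0.51 in M12 to 0.31 in M8 and M10.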
